A study of Mus musculus with 17 samples.

Results

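The interleukin-1 (IL-1) family was followed in the lungs of endotoxemic mice through 10 genes: the ligands Il1a, Il1b, Il18 and Il33, the antagonists Il1rn and Il18bp, and the receptor chains Il1r1, Il1r2, Il1rap and Il1rl1. A gene was included through every probe set that the array's probe table assigns to it alone. This gave 13 probe sets for 9 of the 10 genes, out of 12393 genes with such a probe set on the array. Il1rl1, the receptor of IL-33, was not analysed here. Il1rn and Il1rap each had 3 probe sets and the other 7 genes had 1 each.

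Ligands of the IL-1 family are early alarm signals of infection and tissue damage. IL-1alpha and IL-1beta bind the receptor IL-1R1, which then recruits the accessory protein IL-1RAP and signals through MyD88 to NF-kappaB, while IL-18 and IL-33 use related receptors and the same adaptor. IL-1beta and IL-18 are made as precursors that caspase-1 cleaves, so transcript levels do not measure active cytokine. The pathway carries its own brakes: IL-1RA, the product of Il1rn, occupies IL-1R1 without signalling, IL-1R2 is a decoy receptor with no signalling domain, and IL-18BP binds free IL-18. In the lung, IL-33 is stored in the nuclei of alveolar type 2 and other structural cells, and neutrophils and macrophages are known sources of IL-1beta and IL-1R2.

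Whole lungs of 17 male mice were profiled on Affymetrix MOE430A arrays, 1 array per mouse. Congenitally NOS2-deficient (NOS2-/-) mice lack inducible nitric oxide synthase in every cell, and C57BL/6J mice were their wild-type controls. Mice received Escherichia coli O111:B4 lipopolysaccharide (LPS) at 20 mg/kg or saline intravenously. Lungs of NOS2-/- mice were taken at 7 h (3 mice) and 22 h (3 mice) following LPS and at 22 h following saline (1 mouse). Those of wild-type mice were taken at the same times following LPS (3 mice each) and at 22 h following saline (4 mice), so that no mouse was sampled 7 h after saline. Both genotypes were purchased, and their ages are not stated. P-values measure the spread between individual mice. Values are the deposited log2 signals, on which a difference of 1 is a doubling. A gene was called changed at a limma adjusted p under 0.05 over 22626 probe sets. In whole lung, a fall in a transcript through fewer cells of a type and a fall through less RNA per cell cannot be told apart.

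The series as a whole had 3 features that touch the results. The Nos2 probe set did not separate the genotypes: it read 8.99 to 9.25 at 22 h after LPS and 8.29 after saline in NOS2-/- mice, against 8.19 to 8.80 and 7.75 to 8.47 in wild-type mice. The log2 difference between NOS2-/- and wild-type mice was -0.06 (adjusted p = 0.84) at 7 h and 0.66 (adjusted p = 0.0123) at 22 h after LPS. No source states whether its probes lie inside the deleted part of the gene, so it checks no label, and genotype below is the genotype on the label. Replicate 2 of the wild-type mice 22 h after LPS stood apart, with correlations down to 0.949 with its group, against 0.992 or more within every other group. The only NOS2-/- saline lung read high for some squamous epithelial genes. Its keratin 4 (Krt4) signal was 14.21 against 8.26 to 8.65 in wild-type saline lungs. Its summed linear signal over 9 squamous genes, of which Krt4 was the brightest, was 25300 against 2231 to 2465. Krt5 (9.71), Krt13 (9.37), Sprr1a (11.20) and Sprr3 (10.57) also read above every wild-type saline lung. Krt14 (7.09), Ivl (6.27) and Trp63 (7.39) lay within the range of those lungs, and Krt6a (9.28) just above it (up to 9.24). All 7 alveolar type 2 genes measured were read in every lung, with sums of 74434 to 108369, as the labelled tissue requires. Of 10 neutrophil genes listed 9 were measured, and all 9 rose at 22 h after LPS in both genotypes.

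Sequences upstream of 4 members are shown for reference, since no binding or chromatin data were measured. They are the 250 bases before the transcription start in RefSeq (GRCm38.p6), which held 13 such windows for the 9 genes. Those of Il1b, a ligand, Il1r2, the decoy receptor, and Il18bp, a soluble inhibitor, are given for their LPS responses and those of Il33 for its genotype difference at 22 h. Both annotated starts of Il33 are given. Capitals mark matches to TATAAA or TTNNGNAA (a C/EBP-type pattern), and in Il1r2 to TTCNNNGAA (a STAT-type pattern), on either strand.
Il1b, chr2:129371140-129371389, minus strand: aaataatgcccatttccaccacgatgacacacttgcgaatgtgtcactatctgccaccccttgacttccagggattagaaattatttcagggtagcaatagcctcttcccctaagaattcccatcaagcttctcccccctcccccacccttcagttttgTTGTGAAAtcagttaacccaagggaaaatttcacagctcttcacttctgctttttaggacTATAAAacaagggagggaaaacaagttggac
Il1r2, chr1:40085843-40086092, plus strand: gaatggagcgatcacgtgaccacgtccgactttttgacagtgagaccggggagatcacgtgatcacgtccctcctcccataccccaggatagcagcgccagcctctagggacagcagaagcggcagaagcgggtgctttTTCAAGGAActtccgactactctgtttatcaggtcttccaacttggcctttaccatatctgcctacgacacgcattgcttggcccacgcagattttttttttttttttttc
Il18bp, chr7:102018233-102018482, minus strand: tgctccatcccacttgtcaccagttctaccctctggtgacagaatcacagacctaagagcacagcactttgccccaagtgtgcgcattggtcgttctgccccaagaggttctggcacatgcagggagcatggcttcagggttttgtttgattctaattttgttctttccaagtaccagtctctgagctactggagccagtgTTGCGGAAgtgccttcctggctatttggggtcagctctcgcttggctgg
Il33 start 1, chr19:29924863-29925112, plus strand: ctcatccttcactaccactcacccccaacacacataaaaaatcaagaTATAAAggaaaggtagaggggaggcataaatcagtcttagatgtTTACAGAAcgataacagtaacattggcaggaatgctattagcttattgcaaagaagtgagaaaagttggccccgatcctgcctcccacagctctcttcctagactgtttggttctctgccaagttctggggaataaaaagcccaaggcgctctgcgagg
Il33 start 2, chr19:29945540-29945789, plus strand: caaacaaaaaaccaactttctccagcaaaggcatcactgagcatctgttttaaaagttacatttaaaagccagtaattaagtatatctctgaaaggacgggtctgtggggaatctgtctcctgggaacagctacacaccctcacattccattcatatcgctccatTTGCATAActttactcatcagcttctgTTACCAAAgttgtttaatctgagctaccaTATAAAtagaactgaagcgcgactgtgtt

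In these windows no match overlapped one of another pattern. TATAAA lay 31 to 26 bases before the Il1b start and 29 to 24 bases before the second Il33 start. It was found in 5 of the 13 member windows and in 12.4% of all 32851 windows of this length. TTNNGNAA was found in 9 of 13 and in 36.8% of all windows. TTCNNNGAA was found only in Il1r2 among the 13, 111 to 103 bases before its start, and in 7.02% of all windows. A kappa-B-type pattern, GGGA and CC with 4 bases between them, was found in 2 of 13 (Il1rn and Il1rap) and in 17.6% of all windows. These are letter matches and were not tested as sites.

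**Figure D1:**
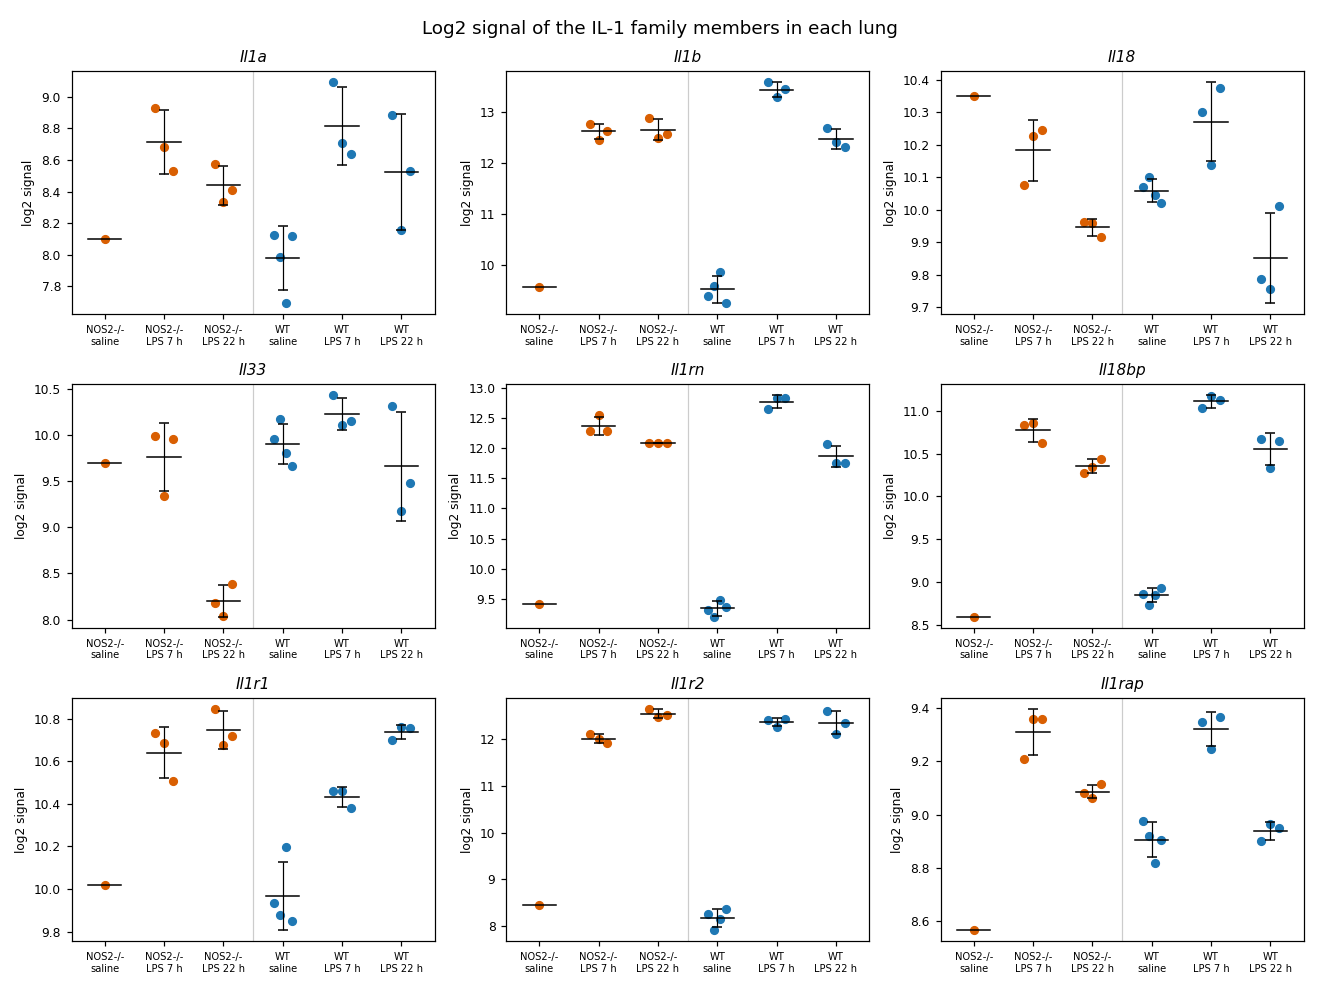
Log2 signal (y axis) of the 9 IL-1 family genes in each of the 17 lungs, by genotype, treatment and time (x axis). Points are mice, horizontal lines are group means and bars are the SD, where a group has more than 1 mouse. Il1b, Il1rn, Il1r2 and Il18bp lay higher in every LPS lung than in every saline lung, and Il33 was lowest in the 3 NOS2-/- lungs 22 h after LPS (8.04 to 8.39).

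Endotoxin raised the larger part of the family in both genotypes. In NOS2-/- mice 6 of 9 genes rose and none fell at 7 h, against 25.0% of all genes called in either direction (9.39% higher, 15.6% lower). At 22 h 6 rose and 2 fell in NOS2-/- mice, against 30.0% of all genes (11.7% higher, 18.3% lower). In wild-type mice 8 of 9 rose and none fell at 7 h, against 35.2% of all genes (14.6% higher, 20.6% lower), and at 22 h 6 rose and 1 fell, against 35.6% (13.1% higher, 22.6% lower). The median log2 difference of the 9 genes was 0.75 at 7 h and 0.73 at 22 h in NOS2-/- mice and 0.83 and 0.77 in wild-type mice, beside -0.07 to 0.04 over all genes. The 7 h and 22 h comparisons of a genotype share their saline mice.

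**Figure D2:**
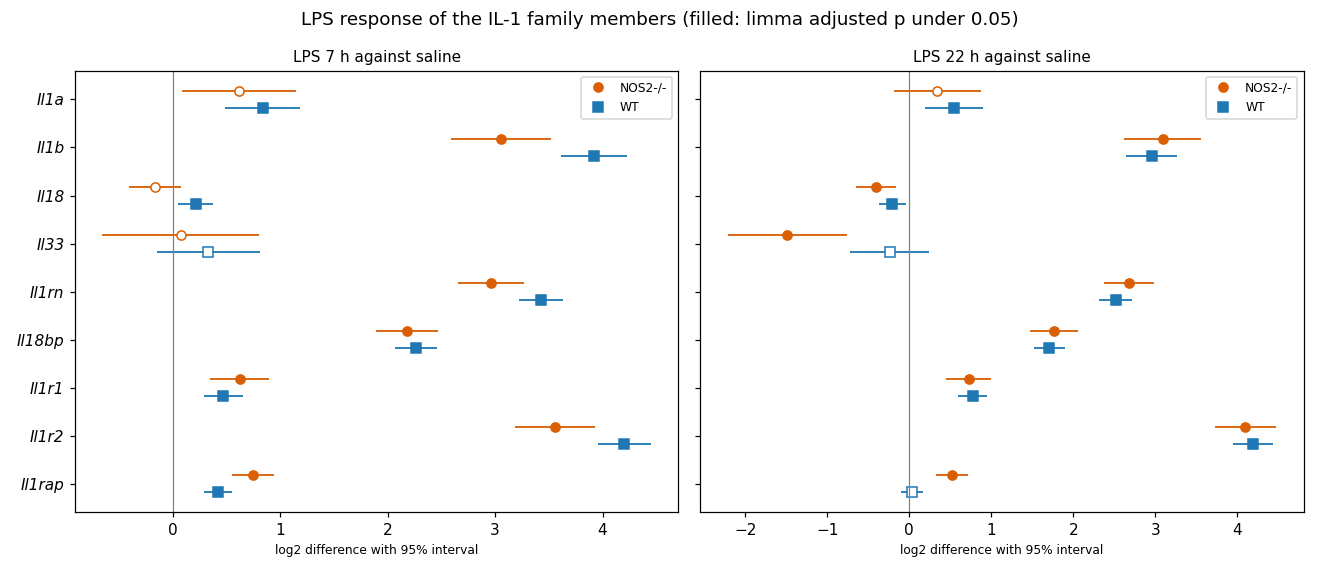
Log2 difference between LPS and saline (x axis) for each gene (y axis) 7 h (left) and 22 h (right) after LPS, in NOS2-/- mice (circles) and wild-type mice (squares), with 95% intervals from limma. Filled symbols passed an adjusted p under 0.05. Il1r2, Il1b, Il1rn and Il18bp stand furthest to the right in all 4 comparisons.

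Il1b, which encodes the secreted pyrogenic cytokine IL-1beta, rose about 8-fold or more in each LPS group. In NOS2-/- lungs Il1b read 12.76, 12.45 and 12.62 at 7 h and 12.88, 12.49 and 12.56 at 22 h after LPS, against 9.56 after saline. Wild-type lungs read 13.58, 13.28 and 13.44 at 7 h and 12.68, 12.40 and 12.30 at 22 h after LPS, against 9.38, 9.57, 9.85 and 9.24 after saline. No LPS lung overlapped a saline lung, and the 3 wild-type lungs at 7 h were the highest of the 17. The log2 difference from saline was 3.06 (SE 0.22, 8.31-fold, adjusted p = 8.3e-08) at 7 h and 3.09 (SE 0.22, 8.49-fold, adjusted p = 7.4e-08) at 22 h in NOS2-/- mice. It was 3.92 (SE 0.14, 15.2-fold, adjusted p = 1.9e-11) at 7 h and 2.95 (SE 0.14, 7.74-fold, adjusted p = 4.6e-10) at 22 h in wild-type mice. In order of group means the other groups after wild-type 7 h (13.43 ± 0.15) were NOS2-/- 22 h (12.64 ± 0.21), NOS2-/- 7 h (12.61 ± 0.15) and wild-type 22 h (12.46 ± 0.20, SD, n = 3 each), and the ranges of these 3 overlapped.

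Il1a, which encodes IL-1alpha, a ligand of the same receptor that also acts from the cell surface and nucleus, moved far less. In lungs of NOS2-/- mice Il1a read 8.93, 8.68 and 8.53 at 7 h and 8.58, 8.33 and 8.41 at 22 h after LPS, against 8.10 after saline. Wild-type lungs read 9.09, 8.71 and 8.64 at 7 h and 8.89, 8.16 and 8.53 at 22 h, against 8.12, 7.98, 7.69 and 8.12 after saline. Each LPS lung was above each saline lung, the closest being the wild-type lung at 8.16 that stood apart. In wild-type mice Il1a rose by a log2 difference of 0.83 (SE 0.16, adjusted p = 0.00091) at 7 h and 0.54 (SE 0.16, adjusted p = 0.018) at 22 h, and the 22 h value was 0.73 (adjusted p = 0.0006) without that lung, 0.36 (adjusted p = 0.0998) without replicate 1 of the same group and 0.45 (adjusted p = 0.0571) without saline replicate 3. In NOS2-/- mice the differences of 0.62 (adjusted p = 0.092) at 7 h and 0.34 (adjusted p = 0.37) at 22 h did not pass against the 1 saline mouse, although at 7 h adjusted p was 0.0196 without the wild-type lung that stood apart. With the 4 wild-type saline mice as reference they were 0.73 (adjusted p = 0.0023) and 0.46 (adjusted p = 0.0356).

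Il18, which encodes the interferon-gamma-inducing cytokine IL-18, changed little at any time. Il18 read 10.08, 10.23 and 10.25 at 7 h and 9.96, 9.96 and 9.92 at 22 h after LPS in NOS2-/- lungs, against 10.35 after saline. Wild-type lungs read 10.30, 10.14 and 10.38 at 7 h and 9.79, 9.76 and 10.01 at 22 h, against 10.07, 10.10, 10.04 and 10.02 after saline. All values lay within 9.76 to 10.38, and the lungs at 22 h after LPS were below every saline lung of either genotype. Il18 fell by 0.40 (SE 0.12, adjusted p = 0.015) at 22 h in NOS2-/- mice, but the saline mouse read above all wild-type saline mice, and against those the difference was -0.11 (adjusted p = 0.275). In wild-type mice it rose by 0.21 (adjusted p = 0.044) at 7 h and fell by 0.21 (adjusted p = 0.048) at 22 h. The wild-type calls held in 11 of 25 alternatives at 7 h (adjusted p up to 0.211) and in 7 of 25 at 22 h (up to 0.169), and the 22 h call was lost without replicate 2 (adjusted p = 0.115).

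Il33, which encodes a nuclear alarmin released by damaged barrier and structural cells, was the 1 ligand that fell strongly, and only in NOS2-/- mice at 22 h did its fall pass. Il33 read 9.99, 9.34 and 9.96 at 7 h and 8.18, 8.04 and 8.39 at 22 h after LPS in NOS2-/- lungs, against 9.69 after saline. Wild-type lungs read 10.43, 10.11 and 10.15 at 7 h and 10.32, 9.18 and 9.48 at 22 h, against 9.96, 10.17, 9.81 and 9.67 after saline. The 3 NOS2-/- lungs at 22 h lay below the other 14, and the wild-type lungs at 22 h were widely spread. Against saline, Il33 fell by 1.49 (SE 0.34, 2.81-fold lower, adjusted p = 0.0038) at 22 h in NOS2-/- mice, and the difference was -1.70 (adjusted p = 1.8e-05) with the wild-type saline mice as reference. The difference was 0.07 (adjusted p = 0.91) at 7 h in NOS2-/- mice, and 0.33 (adjusted p = 0.31) at 7 h and -0.24 (adjusted p = 0.46) at 22 h in wild-type mice. The last value depended on single lungs: it was 0.00067 (adjusted p = 0.999) without replicate 2 and -0.57 (adjusted p = 0.0286) without replicate 1.

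The 3 brakes of the pathway rose together and by more than most ligands. Il1rn, the IL-1 receptor antagonist, read 12.29, 12.54 and 12.28 at 7 h and 12.09, 12.09 and 12.09 at 22 h after LPS in NOS2-/- lungs, against 9.41 after saline. Wild-type lungs read 12.65, 12.83 and 12.83 at 7 h and 12.07, 11.76 and 11.76 at 22 h, against 9.31, 9.20, 9.49 and 9.37 after saline. LPS and saline lungs were separated by more than 2 log2 units, and the wild-type lungs at 7 h were the highest. Il1rn rose by 2.96 (SE 0.14) at 7 h and 2.68 (SE 0.14) at 22 h in NOS2-/- mice, and by 3.43 (SE 0.09) at 7 h and 2.52 (SE 0.09) at 22 h in wild-type mice. These were 7.79-fold, 6.40-fold, 10.8-fold and 5.72-fold rises, with limma adjusted p of at most 4.5e-09.

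Il1r2, the decoy receptor, had the largest LPS response of the 9 genes by the probe set with the highest mean, although another probe set of Il1rn rose more at 7 h. The NOS2-/- lungs gave Il1r2 values of 12.11, 12.02 and 11.92 at 7 h and 12.65, 12.49 and 12.52 at 22 h after LPS, against 8.46 after saline. Wild-type lungs read 12.41, 12.26 and 12.44 at 7 h and 12.61, 12.12 and 12.34 at 22 h, against 8.27, 7.91, 8.14 and 8.36 after saline. The gap between LPS and saline lungs was over 3 log2 units, and the NOS2-/- lungs at 7 h were the lowest of the LPS lungs. The rises were 11.8-fold (log2 3.56, SE 0.18) at 7 h and 17.1-fold (log2 4.10, SE 0.18) at 22 h in NOS2-/- mice, and 18.4-fold (log2 4.20, SE 0.12) at 7 h and 18.2-fold (log2 4.19, SE 0.12) at 22 h in wild-type mice, with adjusted p of at most 1.7e-09.

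Il18bp, the secreted inhibitor of IL-18, rose in every LPS group while its ligand Il18 did not rise in any group by more than 0.21. Il18bp in NOS2-/- lungs read 10.84, 10.86 and 10.62 at 7 h and 10.27, 10.35 and 10.44 at 22 h after LPS, against 8.59 after saline. Wild-type lungs read 11.03, 11.17 and 11.13 at 7 h and 10.67, 10.33 and 10.65 at 22 h, against 8.87, 8.73, 8.85 and 8.93 after saline. In both genotypes the 7 h lungs read highest and the saline lungs lowest. Il18bp rose 4.53-fold at 7 h (log2 2.18, SE 0.14) and 3.38-fold at 22 h (log2 1.76, SE 0.14) in NOS2-/- mice, and 4.81-fold at 7 h (log2 2.26, SE 0.09) and 3.27-fold at 22 h (log2 1.71, SE 0.09) in wild-type mice, with adjusted p of at most 2.0e-07.

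The signalling receptor chains rose by less than the decoy. Il1r1, the ligand-binding chain, read 10.73, 10.68 and 10.51 at 7 h and 10.85, 10.68 and 10.72 at 22 h after LPS in NOS2-/- lungs, against 10.02 after saline. Wild-type lungs read 10.46, 10.46 and 10.38 at 7 h and 10.70, 10.76 and 10.75 at 22 h, against 9.93, 9.88, 10.20 and 9.85 after saline. All LPS lungs were above all saline lungs. Il1r1 rose by 0.62 (SE 0.13, adjusted p = 0.0023) at 7 h and 0.73 (SE 0.13, adjusted p = 0.00051) at 22 h in NOS2-/- mice, and by 0.47 (SE 0.08, adjusted p = 0.00047) and 0.77 (SE 0.08, adjusted p = 3.4e-06) in wild-type mice.

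Il1rap, the shared accessory chain, rose early in both genotypes. Il1rap in NOS2-/- lungs read 9.21, 9.36 and 9.36 at 7 h and 9.08, 9.06 and 9.11 at 22 h after LPS, against 8.56 after saline. Wild-type lungs read 9.35, 9.25 and 9.37 at 7 h and 8.90, 8.96 and 8.95 at 22 h, against 8.98, 8.92, 8.82 and 8.90 after saline. At 22 h the wild-type LPS and saline lungs overlapped, and the NOS2-/- saline lung was the lowest of the 17. Il1rap rose by 0.75 (SE 0.09, adjusted p = 2.6e-05) at 7 h and 0.52 (SE 0.09, adjusted p = 0.00055) at 22 h in NOS2-/- mice, and by 0.42 (SE 0.06, adjusted p = 6.8e-05) at 7 h in wild-type mice, where the difference at 22 h was 0.03 (adjusted p = 0.72). Against the wild-type saline mice the NOS2-/- rises were 0.41 (adjusted p = 8.4e-05) and 0.18 (adjusted p = 0.0268).

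Cell type markers moved with these responses. The summed signal of the 9 neutrophil genes was 38178 to 47778 at 7 h and 59358 to 61825 at 22 h after LPS in NOS2-/- lungs, against 10150 after saline, and 45338 to 52166 and 52749 to 58885 in wild-type lungs, against 6187 to 7953. That of 8 monocyte and macrophage genes, whose brightest is Lyz2, was 28185 to 34622 in LPS lungs and 29335 to 29995 in saline lungs. The low end was wild-type replicate 2 at 22 h, which stood apart, and every other LPS lung read 31875 to 34622. The median log2 signal of the 8 genes was 9.42 to 10.09 in LPS lungs and 9.03 to 9.33 in saline lungs. Cd14 rose by 2.82 at 7 h and 2.86 at 22 h in NOS2-/- mice and by 2.83 and 3.00 in wild-type mice. Other genes of this list fell. In NOS2-/- mice 2 were called higher and 1 lower at 7 h, and 2 higher and 3 lower at 22 h. In wild-type mice 4 were called higher and 2 lower at both times. The median log2 difference of the 8 genes was -0.09 and -0.08 in NOS2-/- mice and 0.14 and 0.20 in wild-type mice. The summed signal of 8 endothelial genes was 9196 to 12686 in LPS lungs and 30179 to 34879 in saline lungs. In each response 7 of the 8 were called lower, and at 22 h in NOS2-/- mice 1 was called higher. Cdh5 read 11.09 to 11.63 after LPS and 11.45 to 11.66 after saline in wild-type lungs. In NOS2-/- lungs it read 11.87 to 12.06 after LPS and 11.55 after saline. The summed signal of 8 mast cell genes was 5153 to 6773 in LPS lungs and 4040 to 4713 in saline lungs, and that of 7 lymphocyte genes 2638 to 3470 and 3723 to 4413. In each response Hdc was the only mast cell gene that rose, and the median signals of the mast cell and of the lymphocyte genes overlapped between LPS and saline lungs. The summed signal of 7 alveolar type 2 genes was 74434 to 95792 in LPS lungs and 99962 to 108369 in saline lungs. The low end was again wild-type replicate 2 at 22 h. In wild-type mice 6 of the 7 alveolar type 2 genes were called lower and 1 higher at both times. In NOS2-/- mice 2 were called lower and 1 higher at 7 h, and 4 lower and 1 higher at 22 h. The neutrophil, endothelial, alveolar type 2, mast cell and lymphocyte sums and the monocyte median separated LPS from saline lungs as Il1b, Il1rn, Il1r2 and Il18bp did. Their part in those responses was not tested. The squamous genes of the NOS2-/- saline lung bear on every NOS2-/- response. With the wild-type saline mice in its place, Il1b, Il1rn, Il1r2, Il18bp, Il1r1 and Il1rap remained called at both times and Il33 at 22 h.

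Genotypes were compared after LPS at each time. At 7 h 1 of 9 genes was called, lower in mice labelled NOS2-/-, against 2.19% of all genes (1.52% lower, 0.670% higher). That gene was Il1b, at 12.61 ± 0.15 in NOS2-/- lungs and 13.43 ± 0.15 in wild-type lungs (SD, n = 3 each), a log2 difference of -0.82 (SE 0.15, 1.77-fold lower, adjusted p = 0.023) with no overlap between groups. The antagonists and the decoy receptor lay on the same side without passing: Il1rn by -0.40 (adjusted p = 0.054), Il18bp by -0.34 (adjusted p = 0.074) and Il1r2 by -0.35 (adjusted p = 0.12). Il33 differed by -0.47 (adjusted p = 0.26) and Il1r1 by 0.21 (adjusted p = 0.19). The median over the 9 genes was -0.34, beside 0.04 over all genes. The Il1b call was lost when any 1 wild-type lung at 7 h or NOS2-/- replicate 2 or 3 at 7 h was left out (adjusted p 0.0617 to 0.117), while the difference stayed between -0.90 and -0.74. Without wild-type replicate 2 at 22 h, which enters through the shared spread, Il1b, Il1rn, Il1r2 and Il18bp were all called lower. The share of all genes given above is that of the main fit and does not apply to these calls. The neutrophil sum was 38178 to 47778 in NOS2-/- and 45338 to 52166 in wild-type lungs at 7 h, with 3 of its 9 genes called lower, and its part in the Il1b difference was not tested.

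At 22 h after LPS Il33 was the only member called between the genotypes, 1 of 9 genes, against 18.1% of all genes called (7.84% lower, 10.2% higher). Il33 averaged 8.20 ± 0.17 in NOS2-/- lungs and 9.66 ± 0.59 in wild-type lungs (SD, n = 3 each), a log2 difference of -1.46 (SE 0.24, 2.74-fold lower, adjusted p = 0.00083), with the highest NOS2-/- lung at 8.39 and the lowest wild-type lung at 9.18. Without wild-type replicate 2 the difference was -1.70 (adjusted p = 2.3e-05) and Il18bp was called too (-0.31, adjusted p = 0.010), and with only the 2 groups in the fit its adjusted p was 0.0504. Il1b differed by 0.18 (adjusted p = 0.47), Il1rn by 0.23 (adjusted p = 0.15), Il1r2 by 0.20 (adjusted p = 0.32), Il1rap by 0.15 (adjusted p = 0.15) and Il18bp by -0.20 (adjusted p = 0.19), with 95% intervals that reached no further than 0.51 from 0. Il1rn and Il1rap also read higher in each NOS2-/- lung than in each wild-type lung, without passing. The median over the 9 genes was 0.09, beside 0.01 over all genes. The alveolar type 2 sum was 83489 to 84909 in NOS2-/- and 74434 to 84285 in wild-type lungs at 22 h, and the endothelial sum was 10882 to 11326 against 9346 to 12686. Both wild-type low ends were replicate 2. Wild-type replicates 1 and 3 read 82458 and 84285 for alveolar type 2 and 11928 and 12686 for endothelium. Of the 7 alveolar type 2 genes 3 were called higher and 2 lower in NOS2-/- mice. The higher ones included Sftpb (0.61) and Sftpc (0.29), and the lower ones were Abca3 (-0.40) and Slc34a2 (-0.44). The part of these genes in the Il33 difference was not tested.

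**Figure D3:**
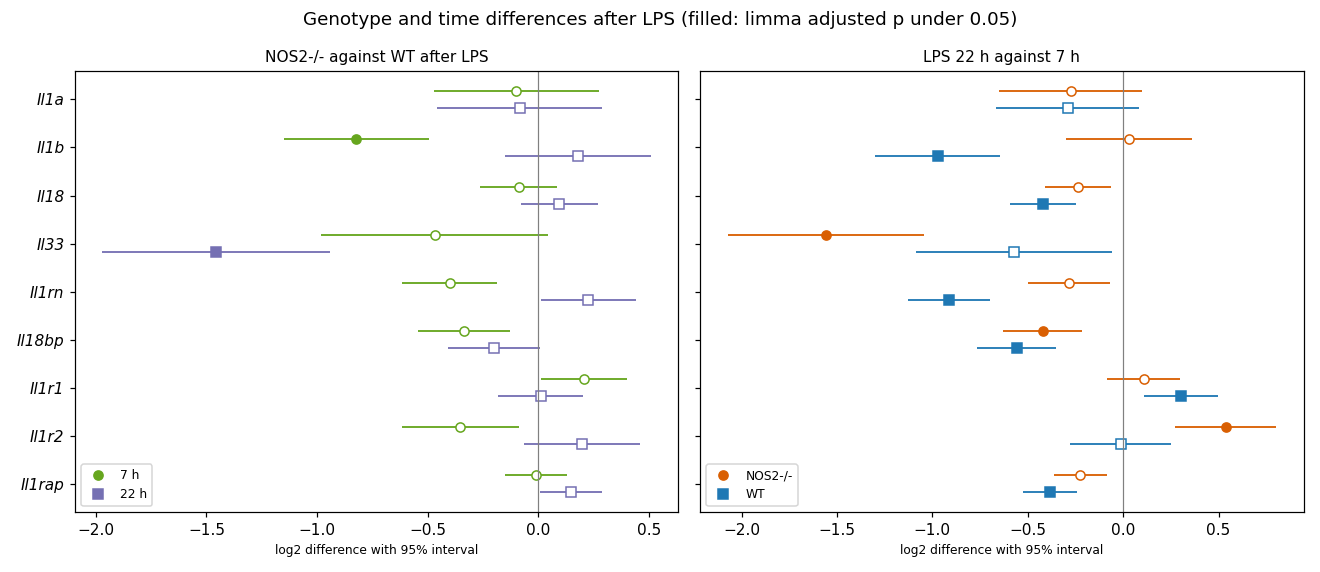
Log2 difference (x axis) for each gene (y axis) with 95% intervals from limma. Left: NOS2-/- against wild-type after LPS at 7 h (circles) and 22 h (squares). Right: 22 h against 7 h after LPS in NOS2-/- mice (circles) and wild-type mice (squares). Filled symbols passed an adjusted p under 0.05: Il1b (-0.82) at 7 h and Il33 (-1.46) at 22 h on the left, 3 genes in NOS2-/- mice and 6 in wild-type mice on the right.

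The later course was read from 22 h against 7 h after LPS within each genotype. In NOS2-/- mice 1 of 9 genes rose and 2 fell, against 8.42% of all genes called (4.55% higher, 3.87% lower). Il33 fell by 1.56 (SE 0.24, 2.95-fold lower, adjusted p = 0.0012), Il18bp fell by 0.42 (SE 0.10, adjusted p = 0.015) and Il1r2 rose by 0.54 (SE 0.12, adjusted p = 0.015). For Il1b the difference was 0.03 (95% interval -0.30 to 0.36, adjusted p = 0.95). Il1rn at -0.28 (adjusted p = 0.11), Il18 at -0.24 (adjusted p = 0.098) and Il1rap at -0.22 (adjusted p = 0.051) did not pass. Without wild-type replicate 2 at 22 h, which enters this comparison only through the shared spread, 6 of 9 were called. The share of all genes given above is that of the main fit and does not apply to this count. The Il1r2 call was lost without NOS2-/- replicate 3 at 7 h or replicate 1 at 22 h (adjusted p 0.0742 and 0.0718), and the Il18bp call without any of 4 NOS2-/- lungs (adjusted p up to 0.0719).

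In wild-type mice 1 of 9 genes rose and 5 fell between 7 and 22 h, against 11.9% of all genes called (3.48% higher, 8.45% lower). Il1b fell by 0.97 (SE 0.15, 1.96-fold lower, adjusted p = 0.00077), Il1rn by 0.91 (SE 0.10, 1.88-fold lower, adjusted p = 3.8e-05) and Il18bp by 0.56 (SE 0.10, adjusted p = 0.0016). Il18 fell by 0.42 (SE 0.08, adjusted p = 0.0035) and Il1rap by 0.38 (SE 0.07, adjusted p = 0.0014), while Il1r1 rose by 0.30 (SE 0.09, adjusted p = 0.044). The decoy Il1r2 differed by -0.01 (95% interval -0.28 to 0.25, adjusted p = 0.95), and Il33 by -0.57 (adjusted p = 0.15). Without replicate 1 at 22 h the Il33 difference was -0.90 (adjusted p = 0.0076). The Il1r1 call held in 12 of 25 alternatives, and adjusted p reached 0.15 in the others. Without replicate 2 at 22 h the same number, 6 genes, was called. The medians over the 9 genes were -0.24 in NOS2-/- mice and -0.42 in wild-type mice, beside -0.03 and 0.01 over all genes.

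The difference between the genotypes in this course was itself tested. The change from 7 to 22 h differed for 2 of 9 genes, against 3.41% of all genes (2.71% higher, 0.702% lower). For Il1b the change was 1.00 log2 units higher in NOS2-/- mice (SE 0.22, adjusted p = 0.022), and for Il1rn 0.63 (SE 0.14, adjusted p = 0.028). For Il1b the call was lost without any of 5 single lungs, with adjusted p up to 0.0685. For Il1rn it was lost with quantile normalization (0.43, adjusted p = 0.103) and without any of 7 single lungs (adjusted p up to 0.0837). Il1r2 had a value of 0.55 (adjusted p = 0.11) and Il33 of -0.99 (adjusted p = 0.14). The Il33 value depended on how wild-type replicate 2 at 22 h was treated: it passed without that lung (-1.23, adjusted p = 0.0158) and with array weights, which keep all lungs (-1.10, adjusted p = 0.0077).

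For the LPS response at 22 h the genotype difference passed for 1 of 9 genes, against 5.44% of all genes (2.76% higher, 2.68% lower). This was Il1rap, with 0.49 (SE 0.11, adjusted p = 0.020). It rests on the 1 NOS2-/- saline mouse, which read 8.56 against 8.82 to 8.98 in wild-type saline mice. The direct difference between the genotypes 22 h after LPS was 0.15 (adjusted p = 0.15). Il33 had a value of -1.25 (adjusted p = 0.11), of -1.49 (adjusted p = 0.0071) without wild-type replicate 2 at 22 h, and of -1.47 (adjusted p = 0.0068) with array weights.

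The 3 probe sets of Il1rn gave the same direction in each LPS response but different sizes. Against saline, probe set 1451798_at rose by 4.24 at 7 h and 3.94 at 22 h in NOS2-/- mice, and by 4.60 and 3.72 in wild-type mice. Probe set 1425663_at rose by 1.53 and 1.32 in NOS2-/- mice and by 2.12 and 1.42 in wild-type mice. Every LPS lung exceeded every saline lung on both, so only the size of the rise depended on the probe set. The genotype difference in the course from 7 to 22 h was 0.58 (adjusted p = 0.059) on 1451798_at and 0.49 (adjusted p = 0.12) on 1425663_at, and neither passed. The probe sets of Il1rap disagreed: 1421843_at was called in none of the 10 comparisons, with a difference of 0.39 (adjusted p = 0.071) at 7 h in NOS2-/- mice, and 1449585_at read 5.81 to 6.17 in all lungs, near the bottom of the array's range, and was called in none. With the mean of its probe sets, the genotype difference in the Il1rap response at 22 h was 0.24 (adjusted p = 0.111).

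**Figure D4:**
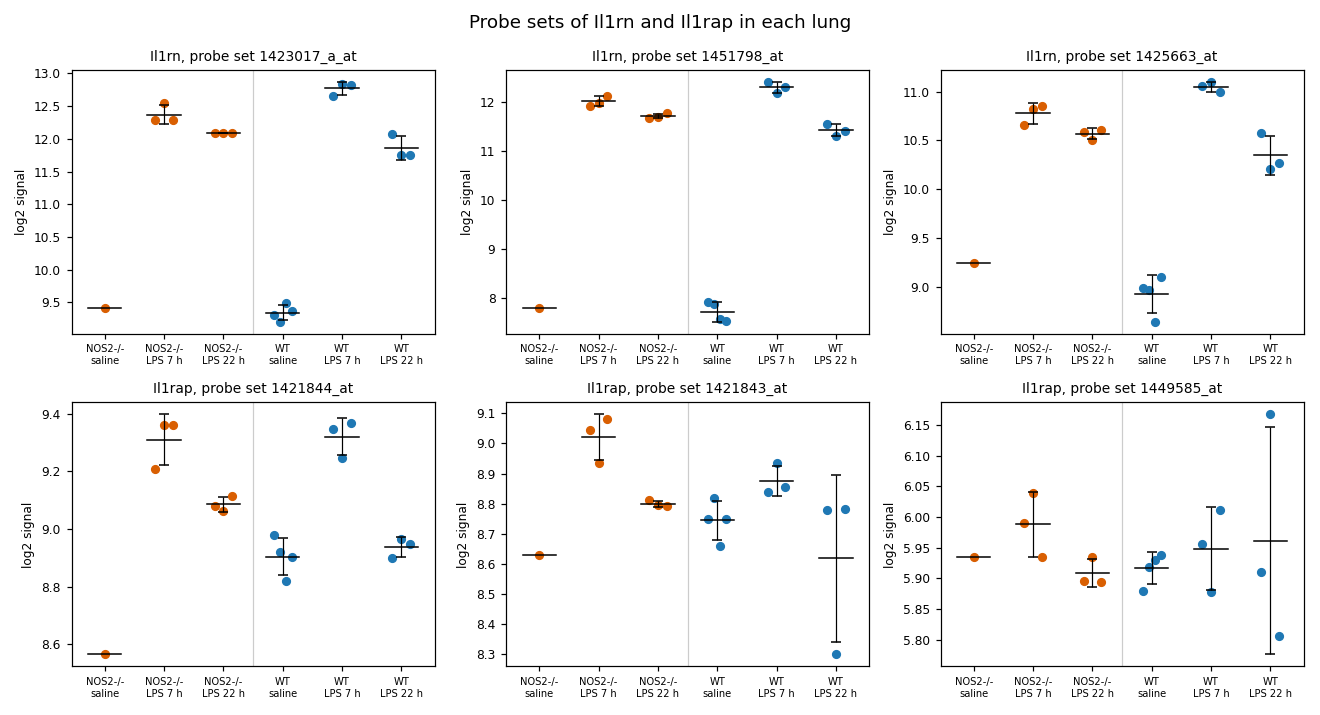
Log2 signal (y axis) of the 3 probe sets of Il1rn (top row) and of Il1rap (bottom row) in each lung, by group (x axis). Points are mice, horizontal lines are means and bars are the SD. The Il1rn probe sets all rose after LPS by different amounts. Those of Il1rap differ in course, and 1449585_at stayed between 5.81 and 6.17.

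A wider list of 36 further genes covered other receptors, adaptors, the inflammasome and proteases that process IL-1 cytokines, and 25 of them were measured. In NOS2-/- mice 8 rose and 1 fell at 7 h after LPS, against 9.39% of all genes higher and 15.6% lower, and 13 rose and 1 fell at 22 h, against 11.7% and 18.3%. In wild-type mice 11 rose and 2 fell at 7 h, against 14.6% and 20.6%, and 9 rose and 2 fell at 22 h, against 13.1% and 22.6%. Casp4, the caspase that senses cytosolic LPS, rose by 2.96 at 7 h and 2.34 at 22 h in NOS2-/- mice and by 3.19 and 1.97 in wild-type mice. Nfkbiz, an IL-1-inducible cofactor of NF-kappaB, rose by 2.36 and 2.78 in NOS2-/- mice and by 2.39 and 1.82 in wild-type mice. Myd88, the adaptor of the signalling receptors of the family, rose by 1.77 and 1.64 in NOS2-/- mice and by 1.77 and 1.28 in wild-type mice. Sigirr, an inhibitory receptor of the family, fell in all 4 comparisons, by 0.33 and 0.40 in NOS2-/- mice and by 0.39 and 0.34 in wild-type mice.

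Pycard, the adaptor that joins inflammasome sensors to caspase-1, differed between the genotypes. Pycard in NOS2-/- lungs read 9.46, 9.77 and 9.11 at 7 h and 9.62, 9.96 and 9.91 at 22 h after LPS, against 9.64 after saline. Wild-type lungs read 10.14, 10.04 and 10.15 at 7 h and 10.87, 10.36 and 10.50 at 22 h, against 8.60, 8.68, 8.62 and 8.75 after saline. The NOS2-/- saline lung was nearly 1 log2 unit above its wild-type counterparts, so the NOS2-/- differences of -0.19 (adjusted p = 0.58) at 7 h and 0.19 (adjusted p = 0.59) at 22 h rest on it. Pycard was lower in NOS2-/- mice by 0.66 (adjusted p = 0.042) at 7 h and by 0.74 (adjusted p = 0.0035) at 22 h. Its response at 22 h differed by -1.72 (adjusted p = 0.0013), a value that also rests on the 1 NOS2-/- saline lung.

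Shares of all genes in this paragraph are those of the main fit and do not apply to the counts without wild-type replicate 2 at 22 h. At 7 h after LPS Pycard was the only 1 of the 25 genes called between the genotypes, against 2.19% of all genes. Without wild-type replicate 2 at 22 h, which enters there only through the shared spread, 3 were called higher and 4 lower. At 22 h 10 were higher and 1 lower in NOS2-/- mice, against 10.2% and 7.84% of all genes, and 11 and 1 without that lung. Highest were Traf6, a ubiquitin ligase downstream of MyD88, at 1.00 (adjusted p = 0.0012), Nfkbiz at 0.97 (adjusted p = 0.00034), Peli1 at 0.73 (adjusted p = 0.0093) and Casp4 at 0.72 (adjusted p = 0.0013). The wild-type replicate that stood apart read lowest of its group for Traf6 (8.37 against 9.10 and 9.29), Peli1 (9.43 against 10.25 and 10.39) and Casp4 (10.41 against 10.92 and 10.69). Without it the differences were 0.73 for Traf6, 0.44 for Peli1, 0.58 for Casp4 and 1.00 for Nfkbiz, with adjusted p of at most 0.00096. From 7 to 22 h 4 genes rose and 1 fell in NOS2-/- mice, against 4.55% and 3.87% of all genes, and 9 rose and 2 fell without the wild-type lung that stood apart. None rose and 5 fell in wild-type mice, against 3.48% and 8.45%, of which Casp4 fell by 1.22, Il18r1 by 0.87, Peli1 by 0.60 and Nfkbiz by 0.57, and without that lung the Peli1 difference was -0.30 (adjusted p = 0.020). Of these 4 Nfkbiz also differed between the genotypes in its course (0.99, adjusted p = 0.017), and without that lung Peli1 did too (0.52, adjusted p = 0.0092).

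**Figure D5:**
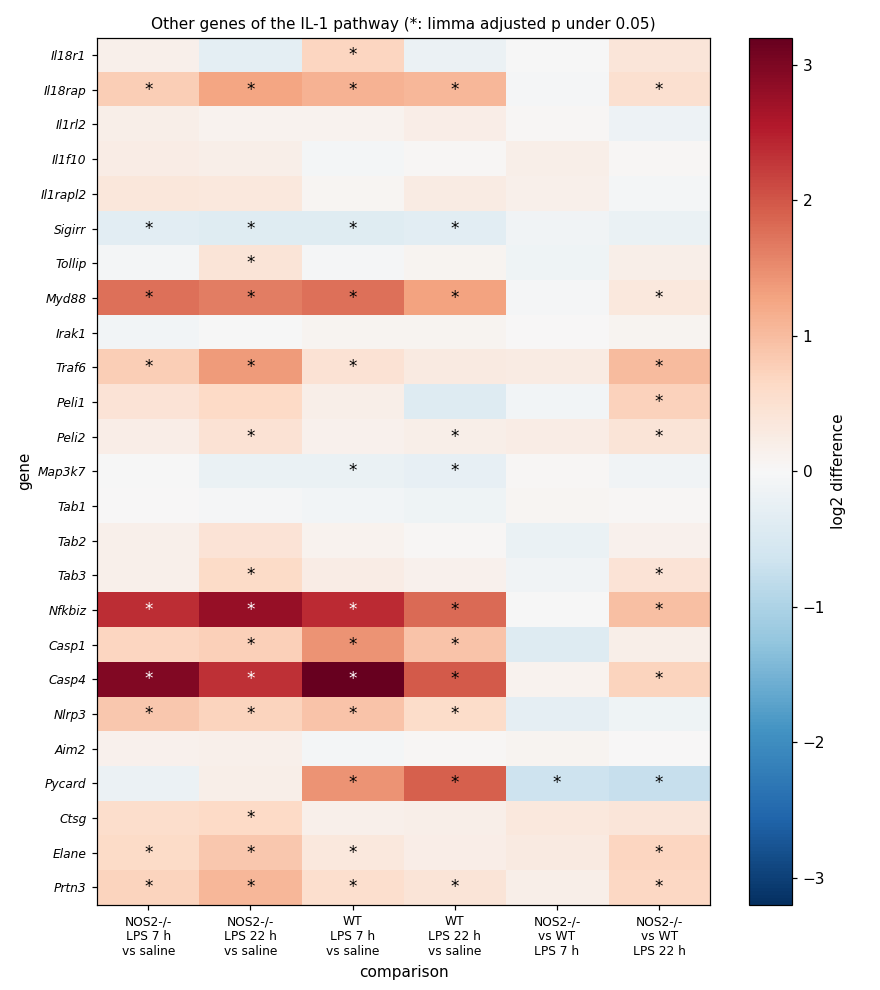
Log2 difference (colour) of the 25 measured genes of the wider IL-1 pathway (vertical axis) in 6 comparisons (horizontal axis). Asterisks mark an adjusted p under 0.05. Casp4, Nfkbiz and Myd88 rose in all 4 LPS responses, Sigirr fell in all 4, and 10 genes were higher in NOS2-/- than in wild-type mice at 22 h.

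Over the 17 lungs Il1b and Il1rn followed each other closely (Pearson's r = 0.988), as did Il1rn and Il18bp (r = 0.986) and Il1b and Il1r2 (r = 0.969). Among all genes, those most like Il1b were Sod2 (r = 0.988), a mitochondrial superoxide dismutase, Il1rn itself, Zbp1 (0.986), Ptpn1 (0.986) and Ch25h (0.985). Those most like Il1r2 were Inhbb, Ccr1, Fcgr4, Wfdc21 and Cd14 (0.994 to 0.995), of which Cd14 is the LPS co-receptor and is on the monocyte list. Those most like Il33 were Rer1 (0.943), Crk (0.939), Cct4 (0.934), Krcc1 (0.934) and Socs5 (0.926). These values are descriptions over lungs that share the LPS and saline grouping and 1 normalization.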

How the data were processed

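Lung RNA of 17 mice was hybridised to Affymetrix MOE430A arrays. The authors used the R package affy to summarise each probe set, and the deposited values are log2 signals. Its version, background correction and normalization, which settle how far high signals are compressed, were not given in the sources used here. Precision is limited by the number of arrays. Medians of the arrays ranged over 8.46 to 8.55, and no further scaling was applied. Of 22690 probe sets 64 controls were left out.

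Groups came from the genotype, treatment and time labels. A linear model holding a mean for each group was fitted to the 17 arrays (limma 3.58.1, R 4.3.3) with default empirical Bayes moderation (prior degrees of freedom 3.75), and p-values were adjusted by Benjamini-Hochberg over 22626 probe sets. The 1 NOS2-/- saline mouse was assumed to vary like the other groups. A gene was represented by its probe set with the highest mean, and its other probe sets were named too. All members, up to 4 called and 4 uncalled genes of the wider list per comparison, and the 5 genes most like Il1b, Il1r2 and Il33 could be named. Sigirr, and Pycard per lung, were chosen after their values were seen. The members and lists were chosen with earlier results of these data known. The lists were the wider IL-1 pathway and markers of neutrophils, monocytes and macrophages, alveolar type 2 cells, endothelium, mast cells, lymphocytes and squamous epithelium. Promoter windows came from RefSeq (GRCm38.p6). The fit was tested on simulated data. Alternatives were quantile normalization, subtraction of array medians, only the groups compared, a filter at the 40th percentile of signal, trended and robust moderation, weights for arrays, the replicate number as a block, omission of each array, the mean of a gene's probe sets, the wild-type saline reference, an adjusted p under 0.01 and a 3-fold or 0.3-fold rule without a test. The wider pathway list without wild-type replicate 2 at 22 h was added after the data were seen.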

Additional observations from a re-analysis of the deposited data

Results flagged for a closer look

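The change from 7 to 22 h after LPS differed between the genotypes for Il1b, by 1.00 log2 units (adjusted p = 0.022), and for Il1rn, by 0.63 (adjusted p = 0.028). In both cases the 3 wild-type lungs at 22 h read below the 3 at 7 h, and for Il1b the NOS2-/- lungs of both times overlapped. The LPS response at 22 h differed for Il1rap, by 0.49 (adjusted p = 0.020), against 1 NOS2-/- saline mouse. That mouse read high for some squamous epithelial genes, whose part in this value was not tested. All 3 were picked out because the test of the difference between the genotypes passed. No wild-type saline mouse was an outlier by Dixon's test in any of the 13 probe sets, where chance would flag about 1 in 20.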

How the results depend on the processing

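Of the 43 differences called, each keeping its direction throughout, 24 of 358 values under the alternatives that keep all arrays and 59 of 716 with 1 array left out no longer passed. Of the 47 not called, 37 of 380 and 17 of 787 came to pass, and 18 and 22 changed sign. The differences from saline of Il1b, Il1rn, Il1r2, Il18bp and Il1r1 passed in every alternative with a test at both times in both genotypes. The cause of the changes below was not tested.

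With 1 array left out the number of members called was 6 to 7 (NOS2-/- at 7 h against saline), 8 to 8 (NOS2-/- at 22 h), 7 to 8 (wild-type at 7 h), 5 to 7 (wild-type at 22 h), 0 to 4 (NOS2-/- against wild-type at 7 h), 1 to 2 (the same at 22 h), 1 to 6 (22 h against 7 h in NOS2-/- mice), 5 to 6 (the same in wild-type mice), 0 to 3 (genotype difference in that change) and 0 to 2 (genotype difference in the 22 h response). The share of all probe sets called moved with these omissions too. Between the genotypes at 7 h it was 0.102% without wild-type replicate 1 at 7 h, beside 2.01% in the main fit. The NOS2-/- saline mouse could not be left out of its own comparisons. The fold rule picked 4 members (Il1b, Il1rn, Il1r2 and Il18bp) in the responses of both genotypes at both times. It picked 0 in the comparisons between LPS groups and in both genotype differences. The share of all genes that met this rule is not given here. Between the genotypes at 7 h, 2 members were called with array medians subtracted, the signal filter or the mean of probe sets, 4 with only the groups compared, 6 with array weights and 0 at an adjusted p under 0.01. The share of all probe sets called moved too, from 2.01% in the main fit to 25.5% with only the groups compared. It was 44.0% with array weights, 3.55% with array medians subtracted and 4.52% of the probe sets kept by the filter. At 22 h the members called were 2 with quantile normalization or the mean of probe sets, 3 with array weights and 0 with only the groups compared. Of all probe sets 16.4% were called in the main fit and 19.3% with quantile normalization. The share was 32.5% with array weights and 4.06% with only the groups compared. From 7 to 22 h in NOS2-/- mice 6 members were called with quantile normalization, only the groups compared or array weights, 5 with the mean of probe sets and 1 at an adjusted p under 0.01, and in wild-type mice 2 with only the groups compared. In NOS2-/- mice 7.81% of all probe sets were called in the main fit. These 3 settings called 10.0%, 20.3% and 28.5%. In wild-type mice the share was 10.8% in the main fit and 2.06% with only the groups compared. The genotype difference in the change from 7 to 22 h held for 1 member with quantile normalization, only the groups compared or the replicate block and 0 at an adjusted p under 0.01. Of all probe sets 3.04% were called for it in the main fit. With these 3 settings 3.58%, 1.64% and 1.72% were called. The genotype difference in the 22 h response held for 2 members with array weights and for 0 with only the groups compared, the replicate block, the mean of probe sets or an adjusted p under 0.01. The share of all probe sets called was 4.70% in the main fit and 15.3% with array weights. It was 2.06% with only the groups compared and 2.35% with the replicate block.

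Among the differences reported above, the values that changed sign were small, the largest being -0.14 and 0.14. Il33 at 7 h in NOS2-/- mice was -0.12 with array weights, -0.14 against wild-type saline mice and -0.042 to 0.28 over the omissions of 1 array (-0.042 and -0.028 without NOS2-/- replicates 1 and 3 at 7 h). Il33 at 22 h in wild-type mice was 0.00067 without replicate 2, while without replicate 1 it kept its sign at -0.57. Il18 at 7 h in NOS2-/- mice was 0.12 against wild-type saline mice. Il1rap at 22 h in wild-type mice was -0.016 with the mean of probe sets. Il1b from 7 to 22 h in NOS2-/- mice was -0.014 with quantile normalization and -0.049 and -0.086 without replicate 2 at 7 h and replicate 1 at 22 h. Il1r2 from 7 to 22 h in wild-type mice was 0.11 with quantile normalization, 0.013 with array medians subtracted, 0.14 with array weights, and 0.0047, 0.021 and 0.10 without replicates 1 and 3 at 7 h and replicate 2 at 22 h.

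Replicate numbers did not pair the lungs: over 30 same-number pairs the correlation of deviations from group means ran from -0.38 to 0.36, and 5 of 16 arrays correlated best with their own number. With the replicate block the genotype difference for Il1rn (0.63, adjusted p = 0.076) and Il1rap (0.48, adjusted p = 0.0887) no longer passed, nor did Il18 in wild-type mice (adjusted p 0.0718 at 22 h and 0.105 at 7 h) or Il1r1 from 7 to 22 h (0.0733), and Il1a passed in NOS2-/- mice (0.58, adjusted p = 0.0276, at 22 h and 0.86, adjusted p = 0.0039, at 7 h).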
